A study of Rattus norvegicus with 24 samples.

Results

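The genes Slco1a4, Slco1c1, Slc16a1, Slc22a8 and Mfsd2a encode carriers that move organic anions, thyroid hormone, lactate and lipids across the wall of brain microvessels. They were chosen by name, through every probe of the rat array whose only gene symbol is 1 of these 5. This gave 8 probes of 31099 on the array, and 5 genes of the 14218 with such a probe. The study measured RNA of microvessels isolated from the cerebral cortex of rats, on 24 arrays in 3 groups of 8. HAL rats first received a portocaval anastomosis, which diverts gut blood around the liver, and 24 h afterwards had the hepatic artery tied, so that the liver lost its remaining blood supply. In the HEP group the same anastomosis was followed by removal of the whole liver. The Sham group had both operations feigned. Tissue was taken 8 to 12 h after the final operation. Both liver-failure groups therefore share the anastomosis, and the labels used here give no strain, age or sex. The comparisons ask how the carriers of the barrier differ from Sham in acute liver failure, and whether an ischaemic liver left in place differs from none.

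The endothelium of brain capillaries is sealed by tight junctions, so that most polar solutes cross it only on carriers. Slco1a4 is an exchanger of organic anions such as bile salts and conjugated steroids, and Slco1c1 takes up thyroxine. Slc22a8 is an organic anion exchanger known for moving anionic drugs and neurotransmitter metabolites out of brain fluid. Slc16a1 is the proton-coupled carrier of lactate, pyruvate and ketone bodies. Mfsd2a takes up lysophosphatidylcholine that carries docosahexaenoic acid, and is known for restraining transport by caveolae in brain endothelium. The liver normally clears bile salts, lactate and many organic anions from the blood.

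The deposited table carries only the decimals of log2 signals, and this sets what each probe can show. A signal below 10 keeps 9 decimals and a signal of 10 or above keeps 8, but zeros at either end were lost. A cell of 9 digits thus marks a signal below 10, while a cell of 8 digits can come from either side. On 1933 of 31099 probes (6.22%) no array had 9 digits, and those probes were called at 10 or above. Their readings are log2 values less an unknown whole number, and each difference between groups is known only up to whole log2 units. A difference of 1 unit would not show, and the direction is the shorter way round that keeps the widest empty stretch of decimals free. Probes with 1 to 14 arrays at 9 digits were taken to lie near 10 and were read as full log2 values. Their cells of 8 digits were read as 10 or above, so a signal below 10 that had lost a zero was read too high. Of the 8 probes of the carriers, 5 could be read and tested, from 4 genes. The probe of Slco1c1 and the further probes of Slc16a1 and Slc22a8 were described without a place in the fit.

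Over 1200 probes read on every array, the root mean square distance of an array to its own group's mean ran from 0.25 to 0.32, the highest being Sham array 3. HEP array 8 lay nearer to the Sham mean (0.26) than to the HEP mean (0.30), and HAL array 1 lay nearer to Sham (0.28) than to HAL (0.29). No Sham array lay nearer to another group. The liver-failure groups were less distinct from each other. HAL arrays 1, 6, 7 and 8 lay nearer to the HEP mean than to the HAL mean. HEP arrays 2, 4 and 8 lay nearer to the HAL mean than to the HEP mean. Among defining markers, 9 of 9 endothelial genes with a probe were at 10 or above. Of pericyte genes 3 of 8 were at that level, of smooth muscle genes 2 of 5, of perivascular fibroblast genes 4 of 5, of astrocyte genes 3 of 7, of oligodendrocyte genes 1 of 5 and of red cell genes 1 of 3. None of 7 neuronal, 6 microglial, 7 choroid plexus or 6 neutrophil and monocyte genes was. Of these, 2 neuronal, 1 choroid plexus and 1 neutrophil and monocyte gene lay near 10, with arrays read on both sides of it. No microglial gene did. In this bulk RNA, fewer cells of a type and less RNA per cell cannot be told apart.

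The 250 bases before the annotated start are shown for the 3 genes found in the RefSeq table (assembly GRCr8), because they hold the start of Slco1a4, the carrier whose RNA passed the test, beside those of a lactate and an anion carrier that did not. Slco1c1 and Mfsd2a were not matched in that table. Capitals mark matches on either strand, and adjoining matches run together. The motifs searched were TATAA for the basal promoter element of that name, CCAAT for the element bound by nuclear factor Y, GGGCGG for the GC box, and CACGTG for the E-box. The core of TCF/LEF factors was searched as CTTTGT and as CTTTGA, and the core of nuclear receptors as AGGTCA and as AGTTCA.
Slco1a4, chr4:176495847-176496096, minus strand: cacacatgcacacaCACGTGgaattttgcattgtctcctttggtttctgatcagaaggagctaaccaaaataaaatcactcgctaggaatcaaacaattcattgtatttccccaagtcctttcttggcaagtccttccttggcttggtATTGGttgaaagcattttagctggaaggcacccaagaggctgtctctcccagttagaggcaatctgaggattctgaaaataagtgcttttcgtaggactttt
Slc16a1, chr2:194812410-194812659, plus strand: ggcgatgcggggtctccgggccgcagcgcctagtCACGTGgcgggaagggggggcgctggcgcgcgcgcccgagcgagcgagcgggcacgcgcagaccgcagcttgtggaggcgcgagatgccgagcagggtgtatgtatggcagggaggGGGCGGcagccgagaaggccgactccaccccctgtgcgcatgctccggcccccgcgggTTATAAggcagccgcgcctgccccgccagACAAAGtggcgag
Slc22a8, chr1:214927034-214927283, plus strand: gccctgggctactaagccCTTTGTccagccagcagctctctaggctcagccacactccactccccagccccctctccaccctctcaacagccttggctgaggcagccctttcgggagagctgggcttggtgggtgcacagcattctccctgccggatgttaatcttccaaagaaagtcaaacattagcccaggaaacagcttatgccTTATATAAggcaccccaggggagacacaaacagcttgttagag

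The stretch before Slco1a4 was 42.4% G and C, that before Slc22a8 56.0% and that before Slc16a1 74.0%, with a median of 51.2% over 33469 promoters of the table. An E-box stood 236 bases before the start of Slco1a4 and 216 before that of Slc16a1. This motif occurs in 5.59% of all promoters of the table. The Slco1a4 stretch also held a CCAAT box on the opposite strand, 102 bases before the start, as 34.0% of promoters do. Slc16a1 and Slc22a8 each carried TATAA close to the start, at 41 and 40 bases, on both strands where the matches overlap, and 24.0% of promoters hold that motif. Slc16a1 had a GC box 100 bases before its start, a motif found in 30.5% of promoters. A TCF/LEF core stood 13 bases before the start of Slc16a1 and 232 before that of Slc22a8, and occurs in 27.5% of promoters. No nuclear receptor core was found in the 3 stretches, while 24.3% of promoters hold 1. These matches are descriptions of letters and not of bound sites.

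Slco1a4, the organic anion exchanger, was lower in HAL than in Sham by the probe that separated the groups, and was the only 1 of the 4 tested genes to pass the threshold in the fit of all probes. Probe 1387093_at was at 10 or above on every array, and its widest empty stretch of decimals was 0.38 of a unit. Its Sham readings ran from 0.69 through a median of 0.82 to 0.86 (mean 0.81 ± 0.06, SD, n = 8). The HAL readings ran from 0.34 through 0.49 to 0.63 (0.48 ± 0.11, n = 8). Every HAL array lay below the lowest Sham array, and the groups did not overlap. The share of all probes that separate HAL from Sham in this way was not counted, so how unusual the separation is remains unknown. The difference was -0.33 log2 units (SE 0.07, 95% interval -0.48 to -0.18, limma adjusted p = 0.0102), which is 1.26-fold lower. Read the other way round the circle, the same decimals would be 0.67 higher. At the same threshold 143 of 3549 probes were called between HAL and Sham (4.03%), with 97 lower (2.73%) and 46 higher (1.30%).

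In HEP the same Slco1a4 probe split the arrays. Of the 8 HEP arrays, 6 read between 0.50 and 0.56, below the lowest Sham array, while HEP array 1 (0.95) and HEP array 8 (0.87) read above the highest Sham array. The HEP median was 0.52 and the mean 0.62 ± 0.18 (n = 8). The difference from Sham was -0.19 log2 units (SE 0.07, 95% interval -0.34 to -0.05, limma adjusted p = 0.168), which did not pass the threshold that 80 of 3549 probes passed (2.25%). Without HEP array 8, the HEP array that lies nearer to Sham over the 1200 probes read on every array, the difference was -0.23 with a limma adjusted p of 0.05, just under the threshold. Without that array 236 of all probes were called in HEP (6.65%) and 178 in HAL (5.02%). Without HEP array 1 the difference was -0.24 and the limma adjusted p 0.0598. HAL and HEP differed by -0.14 on this probe (SE 0.07, limma adjusted p = 0.602), and no probe of 3549 was called between them in the limma fit (0%, with 330 at an unadjusted p under 0.05, 9.30%, and counts under other settings in the closing section).

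Sham array 3 was the lowest Sham array on both Slco1a4 probes. On probe 1387093_at it read 0.69, and the other 7 Sham arrays read from 0.79 to 0.86. Without it the HAL difference on this probe was -0.35 (limma adjusted p = 0.0117) and the HEP difference -0.21 (limma adjusted p = 0.142), with 3.52% of all probes called in HAL and 1.75% in HEP. The second probe, 1387094_at, was also at 10 or above on all arrays, with a widest empty stretch of 0.26 that only just passed the minimum of 0.25. Its Sham readings ran from 0.71 through a median of 1.27 to 1.44 (1.21 ± 0.24, n = 8). Its HAL readings ran from 0.70 through 1.01 to 1.36 (0.99 ± 0.25, n = 8), and its HEP readings from 0.74 through 1.06 to 1.21 (1.01 ± 0.16, n = 8). On this probe the groups overlapped. The difference from Sham was -0.22 in HAL (SE 0.11, 95% interval -0.45 to 0.00, limma adjusted p = 0.285). In HEP it was -0.20 (SE 0.11, 95% interval -0.43 to 0.03, limma adjusted p = 0.399). With both probes averaged, the HAL difference of Slco1a4 was -0.28 (limma adjusted p = 0.0267) and the HEP difference -0.20 (limma adjusted p = 0.128).

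The decimals were also compared without opening the circle, by exact permutation of the arrays between groups, for 24 comparisons of 8 probes. For Slco1a4 probe 1387093_at the unadjusted exact p was 0.000155 in HAL, the smallest that 12870 labelings can give, and 0.00699 in HEP. For probe 1387094_at it was 0.171 in HAL and 0.00932 in HEP. This test asks whether the decimals differ and settles no direction.

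**Figure D1:**
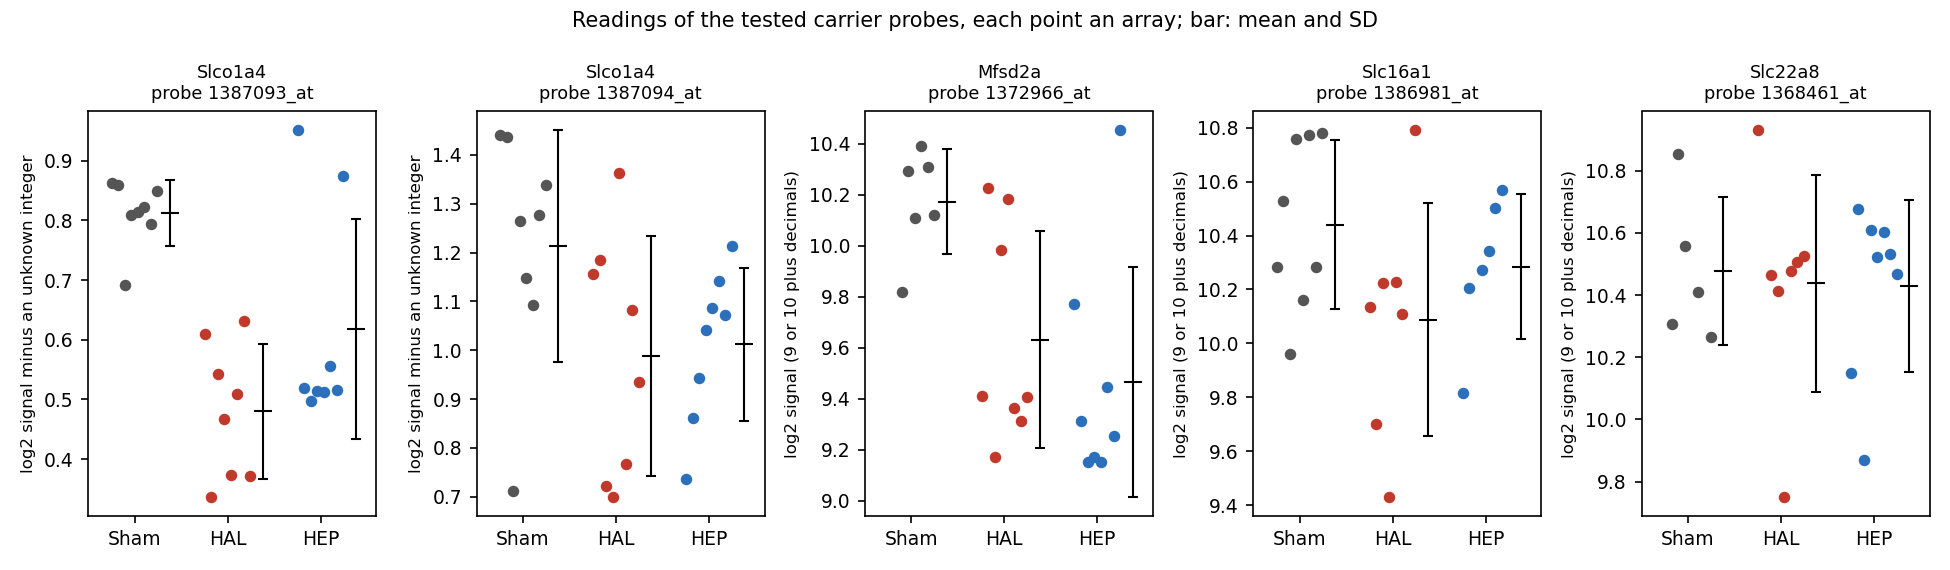
Readings of the 5 tested probes on each array, in log2 units (for both Slco1a4 probes less an unknown whole number), with Sham, HAL and HEP side by side; each point is 1 array and the bars mark the group mean and SD. On Slco1a4 probe 1387093_at all 8 HAL points lie below the Sham points, while HEP arrays 1 and 8 lie above them; on Mfsd2a most HAL and HEP points lie below 10.

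Slco1c1, the thyroxine carrier, stood at 10 or above on all 24 arrays, like Slco1a4. Its probe, 1370205_at, had a widest empty stretch of 0.17, under the minimum of 0.25, so the circle could not be opened and no direction was read. The decimals ran from 0.21 through a median of 0.39 to 0.95 in Sham, from 0.29 through 0.63 to 1.00 in HAL and from 0.17 through 0.67 to 0.85 in HEP. These ranges and medians depend on where the circle is cut, and their order gives no direction. The groups overlapped, and HAL spread over most of the unit. In Sham, array 3 (0.95) stood apart from the others, which reached 0.60 at most. In HEP, array 1 (0.17) stood apart from the others, which began at 0.43. As angles, the mean decimals of HEP and Sham lay 0.34 apart the shorter way, or -0.66 the other way (unadjusted exact permutation p = 0.0497). Those of HAL and Sham lay 0.28 apart the shorter way (unadjusted exact permutation p = 0.206). The values thus place Slco1c1 among the 6.22% of probes at 10 or above and leave its direction unread.

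Slc22a8, the organic anion exchanger of the abluminal side, showed no difference past the threshold. Probe 1368461_at lay near 10, with 2 arrays of 24 below it. The 5 Sham arrays that could be read gave 10.31, 10.85, 10.56, 10.41 and 10.26 (mean 10.48 ± 0.24). The cells of Sham arrays 1, 5 and 7 and of HAL array 2 were too short to read and were left out of the fit. HAL ran from 9.75 through 10.48 to 10.93 (10.44 ± 0.35, n = 7) and HEP from 9.87 through 10.53 to 10.68 (10.43 ± 0.28, n = 8). The groups overlapped throughout. The difference from Sham was -0.04 in HAL (SE 0.17, 95% interval -0.40 to 0.31, limma adjusted p = 0.949) and -0.05 in HEP (SE 0.17, 95% interval -0.40 to 0.30, limma adjusted p = 0.932). The sign of these small differences was not stable. With leading zeros restored in the short cells, 3 of them Sham, they were 0.08 in HAL and 0.12 in HEP. Array weights turned them to 0.06 in HAL and 0.04 in HEP, and leaving out Sham array 3 to 0.05 and 0.04.

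A second Slc22a8 probe, 1385005_at, had 9 digits on 23 of 24 arrays, and its whole parts are unknown. Its decimals ran from 0.25 to 0.96 in Sham, from 0.17 to 0.91 in HAL and from 0.32 to 0.97 in HEP. The unadjusted exact permutation p of the angles was 0.905 for HAL and 0.255 for HEP. Slc22a8 and Slco1c1 are also known from the choroid plexus, whose markers were not at 10 or above in these samples. Its defining marker Ttr, near 10, differed from Sham by 0.03 in HAL (limma adjusted p = 0.982) and -0.19 in HEP (limma adjusted p = 0.838).

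Slc16a1, the lactate and ketone body carrier, had a lower mean in both liver-failure groups, and neither difference passed the threshold. Probe 1386981_at lay near 10, with 4 arrays of 24 below it. Sham readings ran from 9.96 through a median of 10.41 to 10.78 (10.44 ± 0.31, n = 8). HAL ran from 9.43 through 10.13 to 10.79 (10.09 ± 0.43, n = 7, HAL array 7 missing). HEP ran from 9.82 through 10.31 to 10.57 (10.28 ± 0.27, n = 6, HEP arrays 3 and 8 missing). The groups overlapped, with HAL array 8 above every Sham array. The difference was -0.35 in HAL (SE 0.17, 95% interval -0.71 to 0.01, limma adjusted p = 0.293) and -0.16 in HEP (SE 0.18, 95% interval -0.53 to 0.22, limma adjusted p = 0.767). HAL minus HEP was -0.20 (limma adjusted p = 0.79).

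The further Slc16a1 probe, 1380467_at, had 9 digits on 17 of 24 arrays, with decimals in a narrow stretch and an empty part of 0.54. Its decimals ran from 0.80 through a median of 0.84 to 0.96 in Sham, from 0.74 through 0.91 to 1.05 in HAL and from 0.69 through 0.93 to 1.16 in HEP. The group means of the angles lay 0.03 apart for HAL and 0.07 for HEP (unadjusted exact permutation p = 0.463 and 0.278). Here too the groups overlapped, and the HEP arrays were the most spread (SD 0.16 against 0.06 in Sham).

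**Figure D2:**
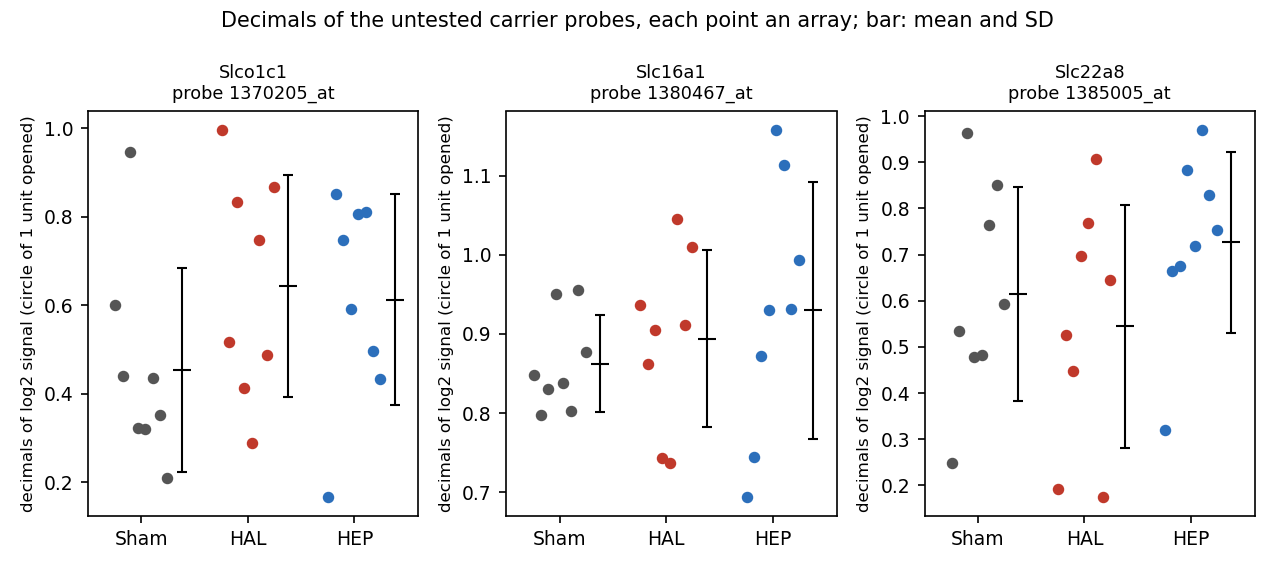
Decimals of the 3 probes left out of the fit, Slco1c1 1370205_at, Slc16a1 1380467_at and Slc22a8 1385005_at, on each array by group, in log2 units less an unknown whole number. The Slc16a1 points keep to a narrow band, while those of Slco1c1 and Slc22a8 spread over most of the unit in every group.

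Mfsd2a, the lysophosphatidylcholine carrier, read lower on average in both liver-failure groups and did not pass the adjusted threshold in either. Probe 1372966_at lay near 10, with 14 arrays below it, the upper edge of the range that was read. The 6 Sham arrays that could be read ran from 9.82 through a median of 10.21 to 10.39 (10.17 ± 0.21), and 5 of them were at 10 or above. The cells of Sham arrays 1 and 2 were too short to read. HAL ran from 9.17 through 9.41 to 10.23 (9.63 ± 0.43, n = 8) with 2 arrays at 10 or above and 5 below the lowest Sham array. HEP ran from 9.15 through 9.28 to 10.46 (9.46 ± 0.45, n = 8) with only array 8 at 10 or above. The other 7 HEP arrays read 9.77 or lower, below every Sham array that could be read. The cells of HEP array 8 and HAL arrays 2 and 5 had 8 digits. They would read 1 log2 unit lower if they were signals below 10 that had lost a trailing zero. The same holds for the 5 Sham cells read at 10 or above, and which cells lost a zero is unknown.

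The Mfsd2a difference from Sham was -0.71 in HEP (SE 0.20, 95% interval -1.13 to -0.29, limma adjusted p = 0.0623). In HAL it was -0.54 (SE 0.20, 95% interval -0.96 to -0.12, limma adjusted p = 0.147). Both had an unadjusted p under 0.05, as did 550 of 3549 probes in HEP (15.5%) and by 635 in HAL (17.9%). In HEP the call changed with the setting. Without HEP array 8 the difference was -0.85 with a limma adjusted p of 0.00429, and in HAL the adjusted p was then 0.0631. Leading zeros restored in short cells added Sham arrays 1 and 2. The difference was then -0.68 in HEP (limma adjusted p = 0.0437) and -0.51 in HAL (limma adjusted p = 0.12). That setting called 95 of 3550 probes in HEP and 125 in HAL. With arrays weighted by their agreement with the fit, both passed, at -0.81 in HEP (limma adjusted p = 0.00951) and -0.63 in HAL (limma adjusted p = 0.0471). Array weights also raised the calls over all probes, to 238 of 3549 in HEP (6.71%) and 195 in HAL (5.49%). HAL minus HEP was 0.17 (limma adjusted p = 0.837).

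The number of digits alone also separated the groups for Mfsd2a. Of 8 arrays in each group, 1 in Sham, 6 in HAL and 7 in HEP had 9 decimals. Fisher's exact test, two-sided and added after the values were seen, gave p = 0.0406 for HAL and 0.0101 for HEP. These are the same digits that set the readings, so the test is no separate measurement. For Slc16a1 the counts were 1, 2 and 1, and for Slc22a8 0, 1 and 1 (Fisher's exact p = 1.0 for each).

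The Mfsd2a direction rests on reading cells of 8 digits as signals of 10 or above. If instead all arrays were below 10 and those cells had lost a leading zero, the decimals of 7 Sham cells would lie between 0.0033 and 0.0392, a span of 0.036. The cells of 9 digits span 0.81 over 6 HAL arrays and 0.62 over 7 HEP arrays. A cell that had lost a leading zero must have small decimals, so the narrow Sham span follows from that reading itself. The spans therefore cannot tell which reading is right. Under that other reading, tried after the values were seen, the whole parts are unknown and the direction is not fixed. If all arrays shared 1 whole part, those 7 Sham cells would lie low. HAL cells at 0.0185 and 0.0226 would lie among them, and the remaining Sham cell would be at 0.8178. By decimals alone, with the whole part dropped, Mfsd2a differed by 0.08 in HAL and 0.04 in HEP (limma adjusted p = 0.729 and 0.905), a measure in which a fall of nearly 1 unit would not show.

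**Figure D3:**
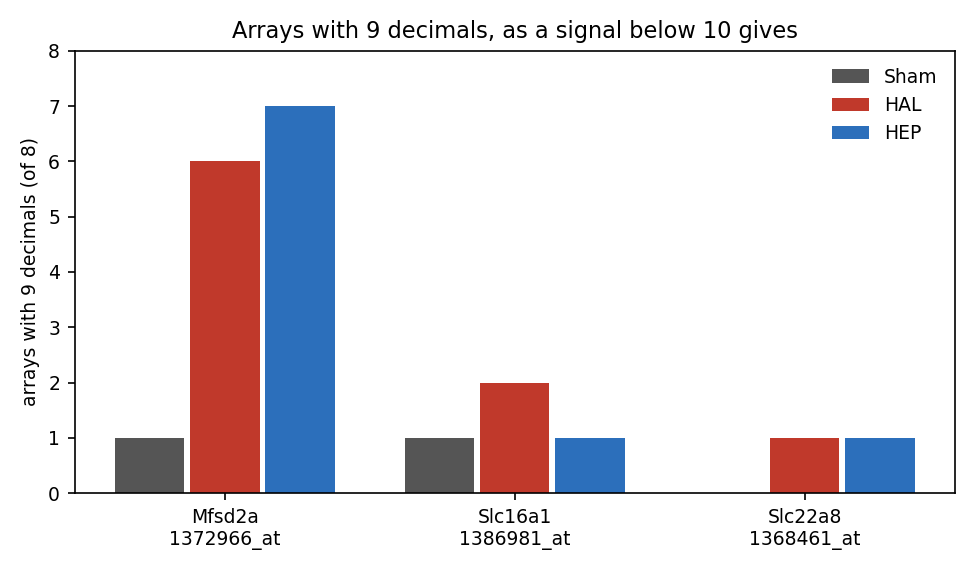
Number of arrays, of 8 in each group, whose cell had 9 decimals, as a signal below 10 gives, for the probes of Mfsd2a, Slc16a1 and Slc22a8 near 10. Mfsd2a has 1 such array in Sham, 6 in HAL and 7 in HEP, while the other probes have 0 to 2 in every group.

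Across the 5 tested probes of these carriers, 1 was called in HAL and 0 in HEP, against 4.03% and 2.25% of all probes. The count at an unadjusted limma p under 0.05 was 2 of 5 in HAL and 2 of 5 in HEP, against 17.9% and 15.5% of all probes. As read, all 5 differences were negative in each contrast, while 57.1% of all probes were negative in HAL and 51.3% in HEP. That tally depends on the reading: turned the other way round, the Slco1a4 probes would be at 0.67 and 0.78 in HAL and at 0.81 and 0.80 in HEP. Slc22a8 turned positive with leading zeros restored, and the sign of Mfsd2a would not be fixed under the other reading of its digits. The median difference of the 5 was -0.33 in HAL and -0.19 in HEP, and over all probes it was -0.03 and -0.01. Both contrasts share the Sham arrays, and 2 of the 5 probes are of Slco1a4, so these signs are not separate observations. Between HAL and HEP 3 of 5 were negative, with a median of -0.02 against -0.03 over all probes.

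**Figure D4:**
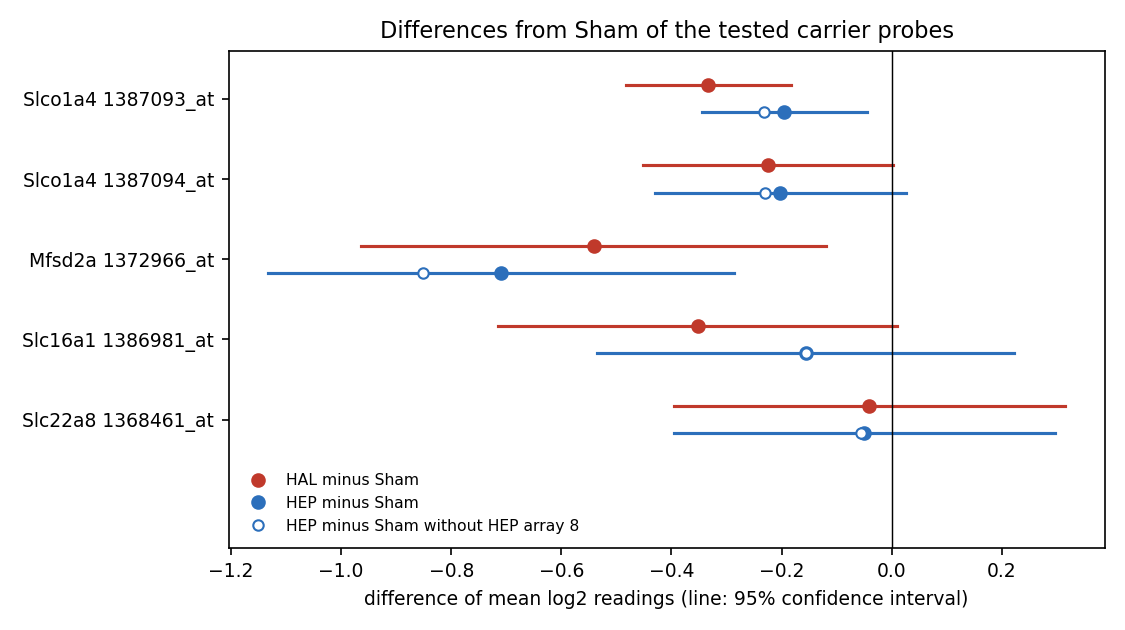
Differences from Sham of the 5 tested probes in HAL and HEP, in log2 units, with 95% confidence intervals; open circles give HEP without HEP array 8. All filled points lie below 0 and the interval of Slco1a4 1387093_at in HAL is the one whose adjusted p passed. The Slco1a4 points are drawn the shorter way round and would lie between 0.67 and 0.81 the other way.

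Other genes of the same pathways were counted from 4 lists of 62 genes. No tested probe of them, 12 in all, was called in either contrast. Of 15 further organic anion and thyroid hormone carriers, 12 had a probe, none at 10 or above, and only Slco2b1 could be tested. Slco2b1, another organic anion carrier, differed by -0.54 in HAL (limma adjusted p = 0.293) and by -0.54 in HEP (limma adjusted p = 0.328). Of 17 monocarboxylate carriers, chaperones and lactate dehydrogenases, 12 had a probe. Bsg, the chaperone that brings Slc16a1 to the membrane, and the lactate dehydrogenases Ldha and Ldhb were at 10 or above but could not be read, and only Slc5a12 was tested, at -0.44 in HAL (limma adjusted p = 0.546) and -0.01 in HEP (limma adjusted p = 0.997).

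Of 21 genes of lipid uptake and handling, 20 had a probe and 7 were tested. Their median difference was 0.02 in HAL and -0.01 in HEP, near that over all probes. Lpcat3, which attaches polyunsaturated fatty acids to lysophospholipids, had the smallest p, with -0.36 in HAL (SE 0.12, limma adjusted p = 0.0995) and -0.01 in HEP (limma adjusted p = 0.991). Of 9 genes of caveolae and transcytosis, the vesicle route that Mfsd2a is known to restrain, 8 had a probe and 5 were at 10 or above, Cav1 and Cav2 among them. The 3 that could be tested had a median of -0.10 in HAL and -0.12 in HEP. Pacsin2, which shapes caveolae, had -0.10 in HAL and -0.12 in HEP (limma adjusted p = 0.578 in HEP). Plvap, a protein of fenestrated endothelium, was below 10.

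Markers of the cell types of the vessel wall were read beside the carriers. Of 21 tested marker probes none was called in either contrast. The 5 endothelial ones ran from -0.21 to 0.12 in HAL (median -0.06) and from -0.18 to 0.27 in HEP (median 0.01). Over all marker probes the lowest value in HAL was -0.83, of the fibroblast collagen gene Col1a2 (limma adjusted p = 0.0543), which was at -0.61 in HEP (limma adjusted p = 0.199). In HEP the lowest was -0.67, of the oligodendrocyte gene Cnp (limma adjusted p = 0.144), and the highest 0.54, of the pericyte gene Kcnj8 (limma adjusted p = 0.156). These marker values in HEP are about as large as the Mfsd2a difference. Cnp, Col1a2 and Kcnj8 were named after their values were seen. The part of cell composition in the Slco1a4 and Mfsd2a differences was not tested.

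The probes whose readings ran most like each carrier over the arrays were named as a description, with no test. They share the arrays, and the groups themselves, with the carrier. For Slco1a4 probe 1387093_at they were of Exoc2 (Pearson r = 0.897 over 22 arrays) and Paqr5 (0.883 over 20 arrays), among 2137 probes compared. For Mfsd2a they were of Prickle1 (0.861 over 20 arrays) and LOC102550392 (0.724 over 21 arrays), among 1580. Slc16a1 was nearest to Map3k3 (0.742) and Pdcd6ip (0.703), each over 21 arrays among 1303 probes. Slc22a8 was nearest to St3gal6 (0.688) and Prpf3 (0.656), each over 20 arrays among 996 probes.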

How the data were processed

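Cortical microvessel RNA was labelled with the WT Plus kit, per the labels' protocols, while the probe identifiers are those of a rat array made for 3′ labelling, a mismatch that was not resolved. The authors summarised signals with RMA, per the submitters' processing notes in a version not stated here. Probes were named from the platform annotation: 20832 of 31099 carried 1 gene symbol, 436 several and 9831 none.

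The deposited values table holds other numbers than log2 signals: each cell is a whole number of at most 9 digits, read here as the decimals of an RMA log2 value without its whole part. RMA log2 values printed to 10 significant digits leave 9 decimals below a signal of 10 and 8 decimals from 10 on, and none of the 746376 cells ended in 0. Leading zeros were therefore lost as well as trailing ones. In probes with no cell of 9 digits, 81.5% of cells had 8 digits, against 81.0% if zeros were lost independently at both ends.

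Probes with no cell of 9 digits (1933) were read by their decimals, on a circle of 1 log2 unit opened at the widest stretch that held none of the 24 arrays, if it spanned at least 0.25 (1023 probes). Another 2527 had 1 to 14 cells of 9 digits, and these took 9 plus the decimals for 9 digits and 10 plus the decimals for 8 digits, with shorter cells treated as missing. The reading took no account of the surgical groups. The other probes were not tested.

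All 24 arrays entered a limma 3.58.1 fit of group means (R 4.3.3, lmFit, then eBayes with no trend). Adjusted p-values (Benjamini-Hochberg) cover the 3549 probes with at least 2 readings in each group, and the threshold was 0.05. Any p-value or adjusted p printed without another test's name comes from it. The decimals of each member probe were also compared as angles on the circle with a two-sided exact permutation test over arrays. Scripts were tested on simulated data. Alternatives were other gaps and ranges of 9-digit cells, other readings of short cells, centred arrays, array weights, the replicate number as a block, the mean of a gene's probes and leaving out each array. The genes and lists described were chosen with earlier results of these data known. The named genes were all member probes, the gene with the smallest p of each list when none passed, and the 2 genes whose readings were most alike to each member's best-read probe over at least 20 arrays. Nothing in the labels ties an array to its own rat, and the p-values then cover only the variation among arrays, which may be technical. Array signals carry no read depth; the number of arrays limits the precision.

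Arrays with the same replicate number did not deviate together: 24 correlations of their deviations ran from -0.15 to 0.11, and the numbers were not treated as pairs. Promoters came from RefSeq, assembly GRCr8 (250 bases before the annotated start), with analyses in Python 3.11.15, numpy 2.4.6, scipy 1.17.1 and pandas 2.3.3.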

Additional observations from a re-analysis of the deposited data

Results flagged for a closer look

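On Slco1a4 probe 1387093_at, Sham array 3 read 0.6915, apart from the other 7 Sham arrays by more than Dixon's criterion for 8 samples allows. It was 1 of 15 groups checked, and chance marks about 1 group in 20. This array also had the largest distance to its own group's mean over the 1200 probes read on every array. Without it the HAL difference was -0.35 (limma adjusted p = 0.0117) and the HEP difference -0.21 (limma adjusted p = 0.142).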

How the results depend on the processing

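The HAL difference of Slco1a4 probe 1387093_at stayed past the threshold under every alternative run, at -0.35 to -0.31 when 1 array was left out. No alternative turned the circle the other way, where HAL would be 0.67 higher, so these runs do not test the direction. Of the 5 tested probes, array weights called 2 in HAL and 2 in HEP (195 and 238 of all 3549). Leading zeros restored in short cells called 1 of them in HEP, that of Mfsd2a (95 of 3550, with 125 in HAL). Leaving out 1 array called 1 in HAL throughout and 0 to 2 in HEP. Over all probes, HAL calls numbered 78 of 15872 with all probes by decimals and 36 of 1753 with those near 10 by decimals. They numbered 37 of 1023 with those at 10 or above alone and 92 to 178 with 1 array left out. HEP calls numbered 50, 22 and 20 under the first 3 of these settings, out of the same numbers of probes. They numbered 238 with array weights and 47 to 236 with 1 array left out. HAL against HEP gave 1 with 3 to 12 cells of 9 digits or with probes at 10 or above alone, 2 with array weights, leading zeros or the replicate block, and 0 to 5 with 1 array left out. With arrays centred on their median, 79 of 164 HAL calls were higher (46 of 143 uncentred) and 62 of 100 HEP calls (45 of 80 uncentred).

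The replicate number as a block gave 126 calls in HAL and 82 in HEP and changed no call of the carriers (Slco1a4 in HAL -0.33, limma adjusted p = 0.0202). The numbers did not pair the arrays, 6 of 24 correlating best with their own number.

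Reversed signs were all of differences that had not passed. Mfsd2a read 0.0836 in HAL and 0.0406 in HEP by decimals, whether for all probes or those near 10, because the whole part is then dropped. As angles it read 0.0477 in HAL, 0.0482 in HEP and -0.0005 between them. Slc16a1 in HAL read 0.33 as an angle. Slc22a8 read 0.14 in HAL, 0.19 in HEP and -0.0559 between them as an angle, 0.0554 and 0.0382 with array weights, and 0.0752, 0.12 and -0.0434 with leading zeros. With 1 array left out it ran from -0.12 to 0.0745 in HAL, from -0.10 to 0.044 in HEP and from -0.0727 to 0.12 between them. Slco1a4 probe 1387094_at between HAL and HEP read 0.0063 when centred and ran from -0.0763 to 0.0186 with 1 array left out. For the other changes the cause was not tested. The range of 3 to 12 cells of 9 digits leaves Mfsd2a and Slc22a8 out, with 3 of the 5 probes tested. Signals below 10 and a narrow empty stretch were the limits: 3 of the 8 probes could not be tested.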
